A study of Mus musculus with 9 samples.

Results

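Plcl2, Rere and St18 are long genes whose RNA was higher in Sfpq homozygous knock-out cortex than in control cortex. They were picked by name as long genes higher in the homozygous libraries, and all 7 of their listed RefSeq transcripts were taken: 1 of Plcl2, 1 of Rere and 5 of St18. They are 3 of the 23201 genes, and 7 of the 30978 transcripts, in the deposited expression tables. The choice used the homozygous and control libraries, so every difference between homozygous libraries and the others in these 3 genes is given as a description, with no test. The heterozygous libraries took no part in the choice.

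The libraries came from cerebral cortex of mouse embryos at E13.5, on a background labelled C57BL/6+C57BL/6J+CBA, with cells labelled as neuronal stem cells plus neurons. There were 3 libraries from sfpq_homo_KO embryos (Sfpq-/-), 3 from sfpq_hetero_KO embryos (Sfpq+/-) and 3 from control embryos. Total RNA was depleted of ribosomal RNA and sequenced without selection for polyadenylated RNA, so RNA still being transcribed was also captured, and the deposited values are RPKM, read numbers scaled to transcript length and library depth. The sources used here name neither the allele, nor the way it was deleted, nor the genotype of the control embryos beyond the word control, and the extraction label names Sfpq+/- in the place where Sfpq-/- would stand.

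Sfpq is a nuclear RNA-binding protein of the paraspeckle, with known roles in splicing and transcription, and the series asks about its part in the transcription of long neuronal genes. Plcl2, also called PRIP2, resembles the delta class of phospholipase C but lacks catalytic activity. It binds inositol trisphosphate, and the PRIP proteins bind GABARAP, GABA-A receptors and protein phosphatases. Rere, also called atrophin 2, is a nuclear corepressor that binds histone deacetylases and, in mouse embryos, promotes retinoic acid signalling. St18 is a zinc finger transcription factor related to Myt1 and Myt1l, which act in neuronal differentiation.

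The 3 proteins are unlike each other, and short coding stretches, read from GENCODE transcripts on the mouse build GRCm38, show a known feature of St18 and Rere and, for Plcl2, its likeness to its nearest relative. In St18 the stretch encodes 1 zinc finger of the Myt1 type, and the capitals mark the cysteine and histidine codons at the positions of the finger pattern searched for. The best-matching finger of Myt1 and of Myt1l follows it, because these relatives are compared with St18 later.
St18, chromosome 1, coding bases 1096 to 1170: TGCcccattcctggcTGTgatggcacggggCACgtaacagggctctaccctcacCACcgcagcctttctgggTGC
Myt1, chromosome 2, coding bases 1456 to 1530: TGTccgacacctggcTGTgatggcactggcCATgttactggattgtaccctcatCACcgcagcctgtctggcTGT
Myt1l, chromosome 12, coding bases 1519 to 1593: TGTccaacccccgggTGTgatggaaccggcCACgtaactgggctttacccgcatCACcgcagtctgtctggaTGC
Myt1 and Myt1l each had 59 of these 75 bases in common with St18. The finger shown was picked as the one most alike over St18, Myt1 and Myt1l, so the other fingers are no more alike. The letters of this finger pattern were found 6 times in the St18 coding sequence, 7 times in Myt1 and 6 times in Myt1l. The longest run of identical coding bases was 17 between St18 and Myt1, and also 17 between St18 and Myt1l.

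In Rere the stretch encodes 24 residues of the arginine and glutamate run that atrophins share, and the capitals mark its 8 arginine codons beside 12 glutamate codons.
Rere, chromosome 4, coding bases 3508 to 3579: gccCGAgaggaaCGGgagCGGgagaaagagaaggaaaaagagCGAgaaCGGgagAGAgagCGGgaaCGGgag
For Plcl2 the stretch holds the longest run of bases identical to its relative Plcl1, 18 bases, shown in capitals with the flanking bases of both genes.
Plcl2, chromosome 17, coding bases 286 to 363: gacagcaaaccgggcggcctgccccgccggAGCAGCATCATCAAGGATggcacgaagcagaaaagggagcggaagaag
Plcl1, chromosome 1, coding bases 199 to 276: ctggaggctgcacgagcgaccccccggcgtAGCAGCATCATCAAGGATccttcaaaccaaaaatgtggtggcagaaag
Rere and Atn1, its closest relative, had a longest identical coding run of 20 bases. These runs are short beside the coding sequences, which hold 3384 bases in Plcl2, 4674 in Rere and 3135 in St18.

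The check of the genotypes came first. Sfpq was 23.8, 25.7 and 25.4 RPKM in homozygous libraries 1 to 3, 168, 149 and 151 RPKM in the 3 heterozygous ones and 168, 187 and 201 RPKM in the 3 control ones. Its mean was 25.0 ± 1.06 RPKM in homozygous libraries, against 185 ± 16.8 RPKM in control libraries (SD, n = 3 each), or 13.48% of control. Heterozygous libraries averaged 156 ± 10.6 RPKM (SD, n = 3), or 84.2% of control. After adjustment over all tested genes the difference missed the threshold (limma adjusted p = 0.659). For Sfpq taken alone, the limma unadjusted p was 0.00566, with a 95% interval of the fold of 0.756 to 0.941.

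Depth, estimated from the steps between low RPKM values, was 167750000 to 194750000 reads in homozygous, 176000000 to 189000000 in heterozygous and 171250000 to 204500000 in control libraries. No 2 libraries held identical values. The limma test was run on log2(RPKM + 0.5) over 12129 genes whose mean over the 9 libraries reached 0.5 RPKM, with Benjamini-Hochberg adjustment and a threshold of 0.05. Between homozygous and control libraries it called 14.2% of tested genes higher and 19.9% lower, and between heterozygous and control libraries it called 0 genes, with 695 genes at an unadjusted p under 0.05.

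Plcl2 had the highest RPKM of the 3 members. It was 40.6, 33.0 and 39.4 RPKM in homozygous libraries 1 to 3, 14.5, 14.5 and 13.9 RPKM in the 3 heterozygous ones and 12.9, 12.9 and 14.0 RPKM in the 3 control ones. Each homozygous library was far above each of the other 6, while the heterozygous and control libraries overlapped. The means were 37.7 ± 4.06 RPKM in homozygous, 14.3 ± 0.345 RPKM in heterozygous and 13.3 ± 0.644 RPKM in control libraries (SD, n = 3 each). The homozygous mean was 2.84-fold the control mean and 2.63-fold the heterozygous mean, and the lowest homozygous library was 2.36-fold the highest control library. On the log2(RPKM + 0.5) scale the change was 1.47 ± 0.08 (SE) against control and 1.36 ± 0.08 (SE) against heterozygous libraries. By its level Plcl2 ranked above 87.3% of tested genes in homozygous and above 67.5% in control libraries.

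Rere was lower than Plcl2 in every library. It was 18.7, 13.35 and 16.8 RPKM in homozygous libraries 1 to 3, 5.92, 6.32 and 6.45 RPKM in the 3 heterozygous ones and 6.03, 5.93 and 6.54 RPKM in the 3 control ones. The lowest homozygous library was still 2.04-fold the highest control library, and the heterozygous values lay within or next to the control range. The means were 16.3 ± 2.70 RPKM in homozygous, 6.23 ± 0.277 RPKM in heterozygous and 6.17 ± 0.328 RPKM in control libraries (SD, n = 3 each). The homozygous mean was 2.64-fold the control mean and 2.61-fold the heterozygous mean, with log2 changes of 1.32 ± 0.10 (SE) and 1.31 ± 0.10 (SE). By its level Rere ranked above 72.7% of tested genes in homozygous and above 47.9% in control libraries.

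St18, taken by its longest transcript NM_001244692, had the lowest level and the smallest fold of the 3. It was 11.6, 10.9 and 12.9 RPKM in homozygous libraries 1 to 3, 5.47, 5.73 and 5.66 RPKM in the 3 heterozygous ones and 5.12, 5.25 and 5.69 RPKM in the 3 control ones. The 3 homozygous libraries were again clear of the other 6, and the heterozygous and control ranges overlapped. The means were 11.8 ± 0.985 RPKM in homozygous, 5.62 ± 0.135 RPKM in heterozygous and 5.35 ± 0.301 RPKM in control libraries (SD, n = 3 each). The homozygous mean was 2.21-fold (log2 1.07 ± 0.07, SE) the control mean and 2.10-fold (log2 1.01 ± 0.07, SE) the heterozygous mean. By its level St18 ranked above 65.2% of tested genes in homozygous and above 44.4% in control libraries.

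**Figure D1:**
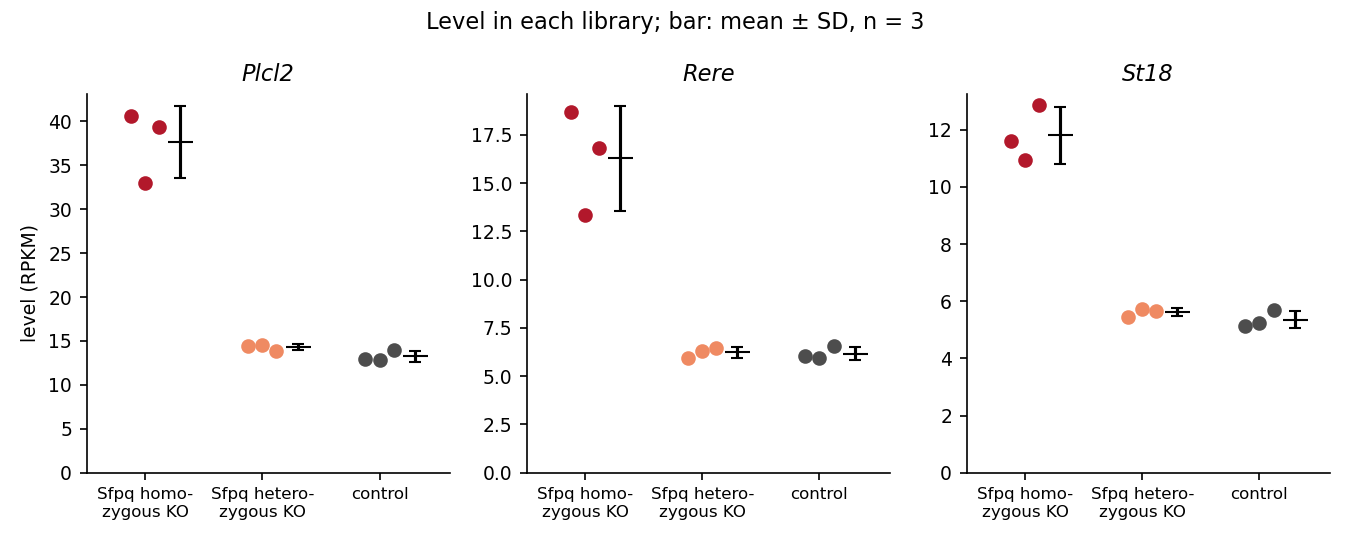
Level of Plcl2, Rere and St18 (RPKM, linear axes from 0) in each library, with the group mean ± SD beside the 3 points of each genotype. The homozygous libraries stand at 33.0 RPKM or more for Plcl2, 13.35 or more for Rere and 10.9 or more for St18, above every heterozygous and control library.

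All 3 genes were above every control library in every homozygous library, so their groups did not overlap in the direction used for the choice. That held for 20.4% of all tested genes against control, and nothing is read from it for genes chosen on this contrast. Against heterozygous libraries the groups also did not overlap, as for 22.2% of tested genes. Homozygous library 2 was the lowest of the 3 homozygous libraries in each member, at log2 1.29 over the control mean for Plcl2, 1.06 for Rere and 0.97 for St18. The coefficient of variation over homozygous libraries was 10.8% for Plcl2, 16.6% for Rere and 8.35% for St18, against 4.86%, 5.32% and 5.63% in control libraries. Counting error was small beside this, since the lowest estimate was 9500 reads for Plcl2, 8052 for Rere and 5308 for St18 in any library.

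The sexes of the embryos, read from Xist and Y-linked genes, were unevenly spread: 1 female and 2 males among homozygous, 3 males among heterozygous, and 2 females and 1 male among control libraries. Within females, Plcl2 was 40.6 RPKM in the homozygous library, against 12.9 RPKM in both control libraries. Within males it was 33.0 and 39.4 RPKM in homozygous libraries, against 14.0 RPKM in the control library. Rere in females was 18.7 RPKM homozygous against 6.03 and 5.93 RPKM control, and in males 13.35 and 16.8 RPKM homozygous against 6.54 RPKM control. St18 in females was 11.6 RPKM homozygous against 5.12 and 5.25 RPKM control, and in males 10.9 and 12.9 RPKM homozygous against 5.69 RPKM control. The difference was of the same kind in both sexes for all 3 genes.

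The comparison that the choice left free on 1 side was heterozygous against control, although the control libraries are the ones the choice used. No member was called there, in a comparison where 0% of all tested genes were called, and the ranges of the groups overlapped in all 3. Ranges that did not overlap were found in 3.49% of tested genes with heterozygous libraries higher and in 7.49% with them lower. Plcl2 differed by log2 0.11 ± 0.08 (SE; 95% interval -0.06 to 0.27, a fold of 0.960 to 1.21), with a limma adjusted p of 0.965. Rere differed by log2 0.01 ± 0.10 (SE; 95% interval -0.21 to 0.24, a fold of 0.863 to 1.18), with a limma adjusted p of 0.998. Its sign turned when control library 1, control library 2 or heterozygous library 3 was left out, so no direction is given for it. St18 differed by log2 0.06 ± 0.07 (SE; 95% interval -0.09 to 0.22, a fold of 0.937 to 1.17), with a limma adjusted p of 0.991. These intervals bound the heterozygous difference well below the homozygous values, but they do not show that heterozygous and control libraries are alike.

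The 3 genes differ in build, as annotated on GRCm38 at their matched RefSeq transcripts. Plcl2 on chromosome 17 spans 179.1 kb with 6 exons, 4185 exonic bases and a first intron of 96.4 kb, which is also its longest and takes 53.8% of the span. Rere on chromosome 4 spans 340.3 kb with 23 exons and 7728 exonic bases. Its first intron, 124.1 kb, is again the longest and takes 36.5% of the span. St18 on chromosome 1 spans 373.7 kb with 24 exons and 5892 exonic bases in its longest transcript, and its second intron of 249.8 kb takes 66.9% of the span. In all 3 the longest intron is thus the first or second, as in 68.2% of the long genes called higher in homozygous libraries, 62.7% of those called lower and 65.9% of all long genes with an annotated transcript.

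**Figure D2:**
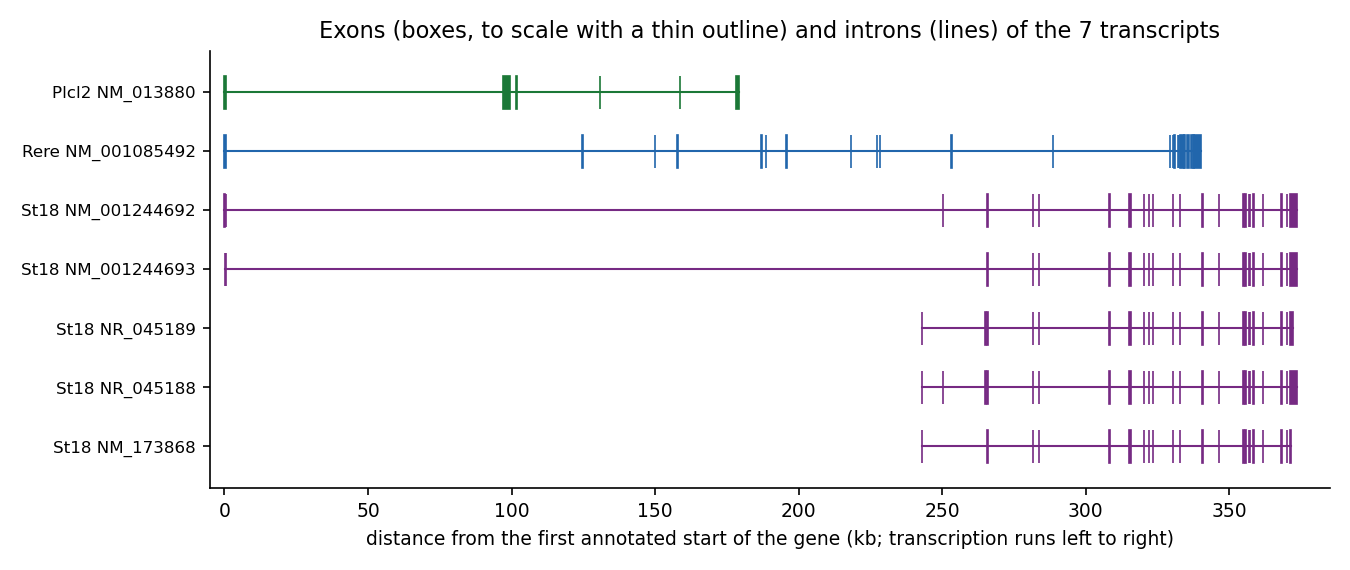
Exons (boxes) and introns (lines) of the 7 transcripts, drawn to scale as distance in kb from the first annotated start of each gene, with transcription from left to right. The longest intron comes first in Plcl2 and Rere, and 3 of the 5 St18 transcripts start about 243 kb downstream of the others.

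St18 is the only member with more than 1 transcript in the tables, and its 5 transcripts fall into a long and a short form. NM_001244692 and NM_001244693 start upstream and span 373.7 and 373.6 kb. NR_045188, NR_045189 and NM_173868 start 242.8 to 242.9 kb further downstream and span 130.9, 129.4 and 128.7 kb, with no intron above 24.4 kb. The 5 transcripts have 20 whole exons in common, and also part of the last exon. All shared bases number 3394 and make up 57.6% to 96.1% of each transcript, so the RPKM values rest largely on the same reads.

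The 5 St18 transcripts gave nearly the same picture. Their means ran from 11.8 to 12.3 RPKM in homozygous, from 5.62 to 5.89 RPKM in heterozygous and from 5.35 to 5.60 RPKM in control libraries. Fold changes of homozygous over control means ran from 2.20 for NM_173868 to 2.23 for NR_045188. Since these values rest largely on the same reads, their similar folds cannot tell the upstream start from the downstream start.

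The transcripts NR_045188 and NM_001244692 start downstream and upstream and have 269 and 299 bases of their own. Those of NM_001244692 are its first 2 exons, and those of NR_045188 are its first exon of 190 bases, an internal exon of 73 bases and 6 bases of the last exon. The ratio of the RPKM of NR_045188 to that of NM_001244692 was 1.0194, 1.0196 and 1.0169 in homozygous libraries, 1.0111, 1.0124 and 1.0133 in heterozygous libraries and 1.0063, 1.0069 and 1.0093 in control libraries. The 3 genotypes did not overlap, with homozygous highest and control lowest. The whole range is narrow, but most bases of the 2 transcripts are common to both. It therefore does not measure a difference on their own bases. How often transcript pairs of other genes separate in this order was not tested. The means were 1.0186 ± 0.0015 in homozygous, 1.0123 ± 0.0011 in heterozygous and 1.0075 ± 0.0016 in control libraries (SD, n = 3 each). The other ratios to NM_001244692 did not keep this order with separate groups. That of NM_173868 averaged 1.0422 in homozygous, 1.0478 in heterozygous and 1.0460 in control libraries, and that of NM_001244693 averaged 1.0086, 1.0098 and 1.0088. NR_045189, with the downstream start, averaged 1.0244 in homozygous, 1.0229 in heterozygous and 1.0191 in control libraries. Its homozygous libraries (1.0232 to 1.0262) lay above its control libraries (1.018 to 1.0202). For NM_173868, also with the downstream start, the homozygous libraries (1.0406 to 1.0431) lay below the control libraries (1.0447 to 1.0479). NM_173868 also has a shorter last exon, of 354 bases against 2475 in NM_001244692. The sources used here do not say how reads that fit several transcripts were counted, and its part in these ratios was not tested.

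**Figure D3:**
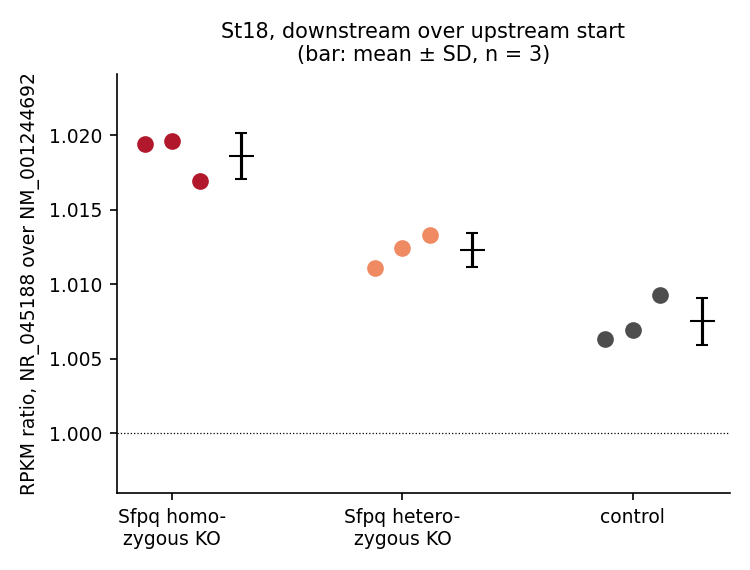
Ratio of the RPKM of the downstream-start St18 transcript NR_045188 to that of the upstream-start transcript NM_001244692, in each library with the mean ± SD of 3, on an axis that does not start at 0. Homozygous libraries lie at 1.0169 to 1.0196, heterozygous at 1.0111 to 1.0133 and control libraries at 1.0063 to 1.0093.

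Among long genes the members stand on the less populated side. Of the 1643 tested genes with a span of at least 100 kb, 158 (9.62%) were called higher and 706 (43.0%) lower in homozygous than in control libraries. Their median log2 change was -0.16, against 0.00 for the 10461 shorter genes. A called increase of at least 2-fold was found in 12 long genes and a called decrease of that size in 201. At least 200 kb was reached by 634 tested genes, of which 38 were called higher, 6 of them by at least 2-fold, and 383 lower.

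Long genes called in either direction also differ in build, given here without a test. The genes called higher had a median span of 154 kb, 19 exons and a longest intron of 57.6 kb. The genes called lower had a median span of 214 kb, 14 exons and a longest intron of 89.6 kb. The longest intron of each of the 3 members is above both of these medians. Plcl2 has fewer exons than either median, and Rere and St18 have more than either.

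The members' own lengths put them further into the range where lower values prevailed. Of the 735 tested genes at least as long as Plcl2, 56 were called higher and 417 lower. Among the 265 genes at least as long as Rere, 11 were called higher and 182 lower. The 231 genes at least as long as St18 included 8 called higher and 161 called lower. These counts contain the members.

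**Figure D4:**
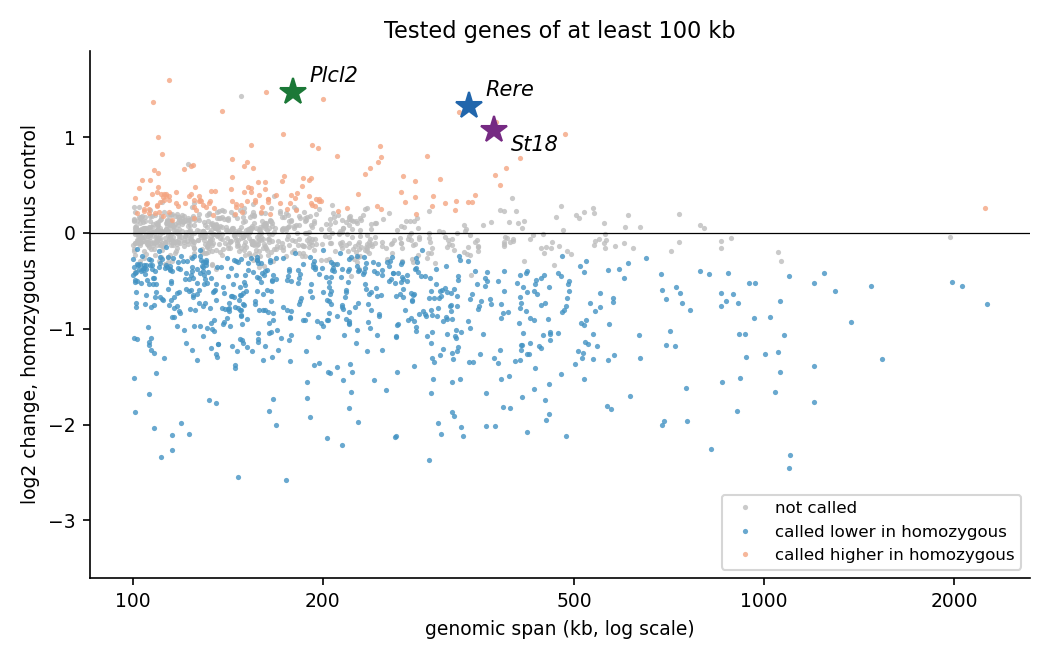
Log2 change of RPKM + 0.5, homozygous minus control, against genomic span (kb, log scale) for the 1643 tested genes of at least 100 kb, coloured by the limma call, with the 3 members as stars. Most called genes lie below 0, and Plcl2, Rere and St18 stand at 1.47, 1.32 and 1.07.

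Ordered by log2 change among these long genes, called or not, Plcl2 was 2nd, Rere 7th and St18 11th. Above Rere and St18 this order holds Uty, a Y-linked gene named after its values were seen. Uty stood at log2 1.42 and was not called, and the sexes were unevenly spread. By the gain in RPKM, Plcl2 was 1st, Rere 2nd and St18 6th. Next to Plcl2 stood Dapk2, a death-associated kinase, at log2 1.60 with 4.68 RPKM in homozygous and 1.21 RPKM in control libraries, and Filip1, a filamin-binding protein, at log2 1.47 with 5.11 and 1.54 RPKM. Rere stood between Prkg2, a cGMP-dependent kinase, at log2 1.36, and Meis1, a homeobox factor, at log2 1.28. St18 stood between the potassium channel gene Kcnh8 at log2 1.16, which is of similar length with 376.5 kb, and the phosphatase gene Ptpn13 at log2 1.03.

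Genes with the most similar profile over the 9 libraries were found by the root mean square difference between centred log2 profiles, in log2 units. For Plcl2 they were Elovl7 at 0.07, Rere at 0.08, Ripk4 at 0.11 and Dapk2 at 0.12. For Rere they were Ccng1 at 0.08, Plcl2 at 0.08, Elovl7 at 0.09 and Acot1 at 0.10. Plcl2 and Rere were thus each other's second-nearest gene, although they lie on different chromosomes. Elovl7 and Ripk4 averaged 1.24 and 1.20 RPKM in homozygous libraries, but 0.177 and 0.198 RPKM in control libraries. They passed the filter of 0.5 RPKM only through the homozygous libraries. Their homozygous means were 6.99-fold and 6.06-fold control, against 2.84-fold for Plcl2, so the added 0.5 RPKM brings their profiles nearer to the members. The nearest genes were of mixed length: besides the members, Dapk2 spans 114 kb, Elovl7, a fatty acid elongase, 71.3 kb, Ccng1, the cyclin G1 gene, 6.8 kb and Acot1, an acyl-CoA thioesterase, 8.9 kb. Of all tested genes with a span, 86.4% are under 100 kb. Ccng1 also repeated the dip of homozygous library 2, with 46.1, 29.7 and 44.0 RPKM in homozygous libraries against 14.5, 14.7 and 15.1 RPKM in control libraries.

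St18 had other neighbours in this ordering. They were Pgap1, which remodels lipid anchors, at 0.06, the zinc finger gene Sall2 at 0.06, the long non-coding RNA Mir100hg at 0.06 and the helix-loop-helix gene Nhlh2 at 0.07. Nhlh2 is also a listed marker of Cajal-Retzius cells, with 14.3 ± 1.65 RPKM in homozygous and 6.80 ± 0.617 RPKM in control libraries (SD, n = 3 each). The distance of St18 was 0.19 to Plcl2 and 0.16 to Rere. The likeness is a description over libraries that share the same 3 genotypes.

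The relatives of Plcl2 went in both directions. Of 11 other tested genes of the phospholipase C family, which cleave membrane phosphoinositides or derive from enzymes that do, 5 were called higher and 4 lower in homozygous than in control libraries, with a median log2 change of 0.23, against 14.2% higher, 19.9% lower and a median of -0.01 over all tested genes. Plcl1, the other PRIP gene, was 2.00, 2.02 and 2.42 RPKM in homozygous libraries and 2.80, 2.87 and 3.27 RPKM in control libraries. The groups did not overlap, as for 25.6% of all tested genes in this direction, and Plcl1 fell by 0.40 ± 0.10 on the log2 scale (SE; limma adjusted p = 0.00967), the opposite direction to Plcl2, at a span of 348.4 kb.

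Among the 5 long catalytic members tested 3 fell, 1 rose and 1 was not called. Plcb1, a beta isoform of 689.2 kb, averaged 1.10 ± 0.187 RPKM in homozygous and 5.98 ± 1.25 RPKM in control libraries (log2 change -2.002 ± 0.13, limma adjusted p = 7.28e-07). Plce1, of 260.8 kb, changed by -1.09 ± 0.11 (limma adjusted p = 2.21e-05) and Plcb4, of 272.8 kb, by -0.91 ± 0.09 (limma adjusted p = 2.22e-05). Plch1, of 155 kb, rose, with 9.88 ± 0.075 RPKM in homozygous and 6.00 ± 0.464 RPKM in control libraries (log2 change 0.68 ± 0.08, limma adjusted p = 6.1e-05). Plcg2, of 136.9 kb, stood at log2 0.23 ± 0.09 and missed the threshold (limma adjusted p = 0.0766). Every homozygous library was above every control library, as for 20.4% of all tested genes. The shorter genes Plcd4 and Plcd1, delta isoforms of the class Plcl2 resembles, rose by log2 1.65 ± 0.16 and 0.86 ± 0.10 (limma adjusted p = 1.61e-05 and 9.25e-05). Plcd4 averaged 2.01 RPKM in homozygous, but 0.307 RPKM in heterozygous and 0.285 RPKM in control libraries. It passed the filter of 0.5 RPKM only through the homozygous libraries, and its log2 change ran from 1.21 to 2.43 over the alternatives. Plcb3 and Plch2, named after their values were seen, were the other 2 called higher, by log2 0.62 ± 0.09 and 0.55 ± 0.10.

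Genes that handle inositol phosphates, among them the ligand of Plcl2, were read next. Of 12 tested, 1 was called higher and 5 lower, with a median log2 change of -0.10. The shares over all tested genes were 14.2% higher and 19.9% lower. Itpk1, an inositol phosphate kinase of 136.3 kb, averaged 2.604 ± 0.301 RPKM in homozygous and 6.47 ± 0.884 RPKM in control libraries and changed by -1.16 ± 0.10 (limma adjusted p = 8.61e-06). The phosphatase gene Inpp5b changed by -0.52 ± 0.08 (limma adjusted p = 0.00033). The inositol monophosphatase genes Impa2 and Impa1 changed by -0.68 ± 0.10 and -0.32 ± 0.05 (limma adjusted p = 0.000346 and 0.00071). The calls of the phosphatase Inpp5a (log2 -0.25, adjusted p = 0.0212) and of the kinase Itpkc (log2 0.25, adjusted p = 0.0318) were each lost when control library 2 was left out, at limma adjusted p = 0.0755 and 0.144, and over all alternatives their adjusted p ran from 0.0117 to 0.0755 and from 0.00417 to 0.144.

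Among GABA-A receptor subunits and the known binding partners of the PRIP proteins, 0 of 16 tested genes were called higher and 5 lower. Their median log2 change was -0.08. The shares over all tested genes were again 14.2% higher and 19.9% lower. Gabra4, an alpha subunit gene, changed by -0.68 ± 0.09 (limma adjusted p = 0.000141). The kinase gene Akt1 changed by -0.29 ± 0.06 and the phosphatase gene Ppp1cc by -0.19 ± 0.04 (limma adjusted p = 0.00487 and 0.00609), and the call of Ppp1cc was lost under median centring (adjusted p = 0.0988, over a range of 0.00477 to 0.0988). Gabarap, the receptor-associated protein that PRIP binds, stood at 60.7 ± 1.85 RPKM in homozygous and 66.4 ± 1.42 RPKM in control libraries (SD, n = 3 each), and its call (adjusted p = 0.0429) was lost in each fit that left out a control or homozygous library, with adjusted p of 0.0202 to 0.339 over all alternatives. At an unadjusted p under 0.05 this list had 2 genes higher and 5 lower.

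Rere's closest relative was barely present. Atn1, atrophin 1, averaged 0.384 ± 0.045 RPKM in homozygous, 0.408 ± 0.020 RPKM in heterozygous and 0.388 ± 0.075 RPKM in control libraries (SD, n = 3 each), under the filter, and the groups overlapped. Among 19 other tested corepressor partners of atrophins, 1 was called higher and 6 lower, with a median log2 change of -0.07. Over all tested genes 14.2% were called higher and 19.9% lower. Wdr5, which reads histone methylation, averaged 16.5 ± 0.698 RPKM in homozygous and 20.5 ± 0.854 RPKM in control libraries (log2 change -0.31 ± 0.06, limma adjusted p = 0.00139). The histone deacetylase gene Hdac3 changed by -0.27 ± 0.05 (limma adjusted p = 0.00195) and Hdac2 by -0.19 ± 0.05 (limma adjusted p = 0.00735). The Hdac2 call was lost under both other scalings, with adjusted p = 0.57 under quantile normalization and 0.0732 under median centring, over a range of 0.00438 to 0.57. Mier1 (log2 -0.34, adjusted p = 0.0202), Mta2 (log2 -0.17, adjusted p = 0.0294) and the methyltransferase Ehmt2 (log2 0.22, adjusted p = 0.0232) each lost their call without control library 2. The count of called partners depended on these choices. It was 2 higher and 2 lower under median centring, 0 higher and 3 lower without control library 2, and 1 higher and 3 lower without homozygous library 1.

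Retinoic acid signalling, in which Rere acts in mouse embryos, had 2 of 12 tested genes called higher and 0 lower, with a median log2 change of 0.10. The share called higher is near the 14.2% over all tested genes, and nothing is read from it for the pathway. Crabp2, which carries retinoic acid to its receptors, was 182, 153 and 160 RPKM in homozygous libraries, 29.5, 30.9 and 32.4 RPKM in heterozygous libraries and 40.3, 39.8 and 32.8 RPKM in control libraries. The homozygous libraries stood clear of the other 6, and the log2 change against control was 2.12 ± 0.09 (SE; limma adjusted p = 3.05e-08). Homozygous libraries all above control libraries were found for 20.4% of all tested genes. Stra6, the retinol-binding protein receptor, averaged 0.802 ± 0.061 RPKM in homozygous and 0.509 ± 0.129 RPKM in control libraries (log2 change 0.38 ± 0.10, limma adjusted p = 0.0145), a call lost without control library 2 (adjusted p = 0.0662, over a range of 0.00158 to 0.0662). The receptors Rara, Rarb, Rarg, Rxra and Rxrb were not called, with log2 changes of -0.10 to 0.23.

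St18 is 1 of 3 genes of its family, and the 3 did not move together. Myt1l, of 394.8 kb, was 1.26, 1.29 and 1.89 RPKM in homozygous libraries, 6.98, 5.25 and 4.91 RPKM in heterozygous libraries and 4.70, 4.55 and 5.90 RPKM in control libraries. Its homozygous libraries lay below the other 6, and the log2 change against control was -1.50 ± 0.15 (SE; limma adjusted p = 2.27e-05). Homozygous libraries all below control libraries were found for 25.6% of all tested genes. Myt1, of 64.5 kb, averaged 24.5 ± 2.15 RPKM in homozygous, 22.3 ± 0.281 RPKM in heterozygous and 22.0 ± 1.81 RPKM in control libraries (SD, n = 3 each). Its log2 change of 0.16 ± 0.07 did not pass the test (limma adjusted p = 0.122), but it did under quantile normalization (0.0397), under median centring (0.0113) and without control library 3 (0.0344), over a range of 0.0113 to 0.398. St18 and Myt1l, which have nearly the same length and the zinc finger shown above, thus stood on opposite sides of control, at 2.21-fold and 0.293-fold.

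**Figure D5:**
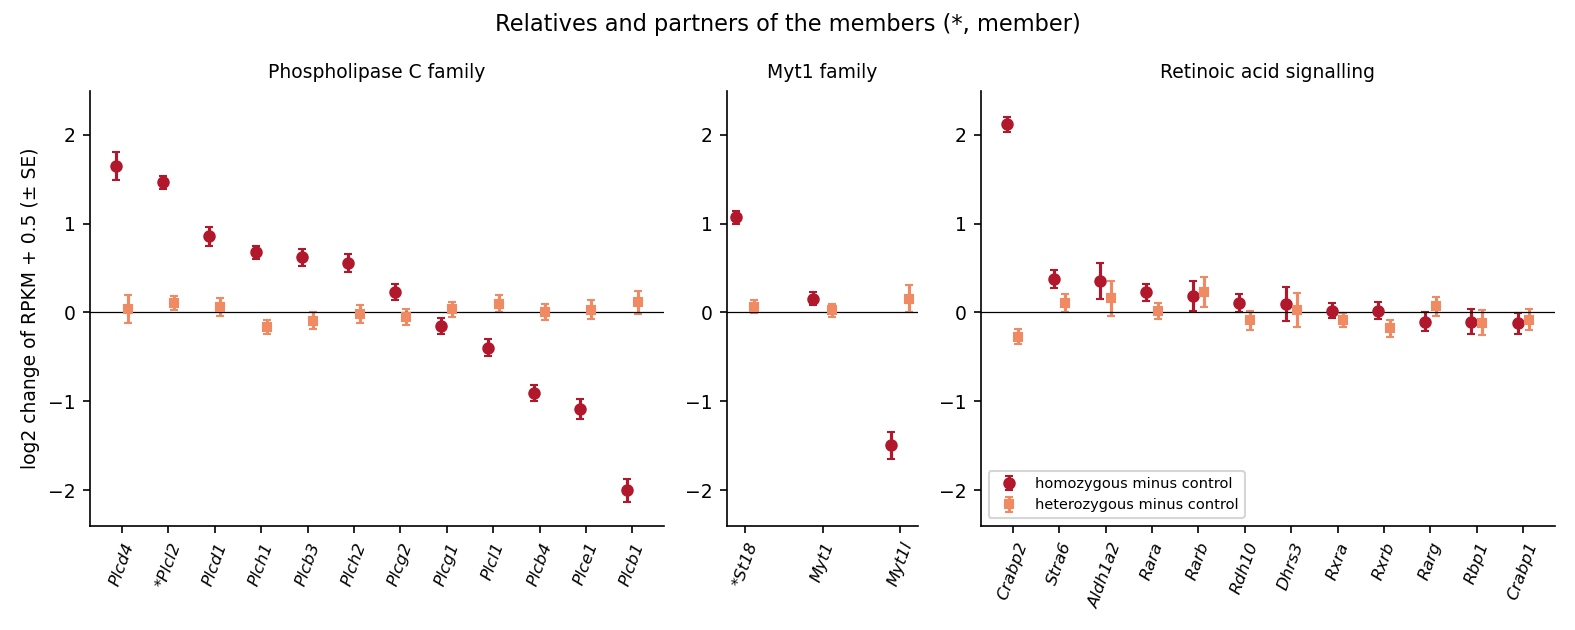
Log2 change of RPKM + 0.5 (± SE from the limma fit of 9 libraries) of the tested phospholipase C, Myt1 and retinoic acid genes, homozygous minus control (circles) and heterozygous minus control (squares), with the members starred. Homozygous changes run from 1.65 for Plcd4 to -2.002 for Plcb1 and from 1.07 for St18 to -1.50 for Myt1l, and Crabp2 stands at 2.12. Plcd4 averaged under 0.5 RPKM in control libraries.

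In each of these 6 gene lists 0 genes were called between heterozygous and control libraries by limma, as over all tested genes, and 4 of their 72 tested genes had an unadjusted p under 0.05.

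Markers of other cells were read in the same libraries. In cortex tissue a change in the share of a cell type and a change in RNA per cell cannot be told apart. Beside the counts of every marker list stand the shares over all tested genes, 14.2% called higher and 19.9% called lower. Of 9 tested Cajal-Retzius markers, 6 were called higher and 0 lower in homozygous than in control libraries. Reln, Trp73 and Cacna2d2, named after their values were seen, were not called. They stood at log2 -0.16, -0.04 and -0.21 (limma adjusted p = 0.149, 0.792 and 0.0923). The list summed to 58.9 to 70.9 RPKM in homozygous, 41.1 to 46.9 RPKM in heterozygous and 41.2 to 46.5 RPKM in control libraries. The Cajal-Retzius count was 5 higher and 1 lower without control library 1, and also without homozygous library 3. It was 2 higher of 3 tested at a mean of at least 2 RPKM, and 7 higher of 10 with no filter. Of 13 dorsal telencephalic markers, which define the labelled tissue, 1 was called higher and 8 lower, with sums of 243 to 272 RPKM in homozygous, 380 to 412 RPKM in heterozygous and 343 to 438 RPKM in control libraries. Of 10 tested microglial markers 5 were called higher and 0 lower, with sums of 21.6 to 29.7 RPKM in homozygous, 17.6 to 21.4 RPKM in heterozygous and 16.5 to 18.6 RPKM in control libraries. The microglial count was 2 without control library 1 and 2 without homozygous library 3. Their part in the higher levels of Plcl2, Rere and St18 was not tested.

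The other marker lists gave sums that overlapped between homozygous and control libraries, although that of diencephalon and hem did so through Ttr, a transport protein gene. Of 15 tested markers of GABAergic neurons 2 were called higher and 2 lower, with sums of 55.5 to 65.3 RPKM in homozygous, 44.3 to 55.6 RPKM in heterozygous and 43.8 to 78.0 RPKM in control libraries, and 4 were lower without control library 3. Of 7 tested markers of diencephalon and hem 4 were called higher and 0 lower, with sums of 415 to 499 RPKM in homozygous, 394 to 553 RPKM in heterozygous and 400 to 620 RPKM in control libraries. Ttr alone made up 372 to 455, 366 to 521 and 371 to 587 RPKM of these. Without it, a choice made after its values were seen, the sums were 40.7 to 44.3 RPKM in homozygous, 28.03 to 32.7 RPKM in heterozygous and 28.6 to 32.8 RPKM in control libraries, and the homozygous libraries stood clear above the other 6. Tcf7l2, 1 of the 4 called higher, averaged 0.796 RPKM in homozygous, 0.406 RPKM in heterozygous and 0.375 RPKM in control libraries. It passed the filter of 0.5 RPKM only through the homozygous libraries. Without control library 1 the counts for diencephalon and hem were 3 higher and 1 lower. The part of these markers in the members' levels was not tested either. Of 7 erythroid markers 0 were called higher and 2 lower, with sums of 1857 to 2302 RPKM in homozygous, 1789 to 2641 RPKM in heterozygous and 2245 to 2939 RPKM in control libraries, and 0 were lower without control library 2, control library 3 or homozygous library 3. No call was made by limma among 10 endothelial markers, with sums of 76.9 to 97.7, 75.5 to 82.9 and 73.0 to 92.4 RPKM in homozygous, heterozygous and control libraries, or among 3 oligodendrocyte markers, with sums of 10.6 to 12.5, 9.23 to 12.8 and 9.85 to 12.9 RPKM, and 0 genes of either list had an unadjusted p under 0.05 between homozygous and control libraries. No listed marker was at 0 in every library.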

How the data were processed

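Each of the 9 libraries had 1 deposited table of RPKM values per RefSeq transcript, made by the authors. The submitters' processing notes name CASAVA 1.8.2, TopHat 1.4.1 and the genome build mm9. Per the labels' protocols, Ribo-Zero took out ribosomal RNA and the libraries followed a strand-keeping protocol. The sources used here do not give the program behind the RPKM values, its use of strand or its handling of shared reads. Reads of overlapping and antisense genes therefore cannot be told apart. The design text names 3 embryos for each genotype.

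Transcript IDs were matched to gene symbols (30507 through a RefSeq table, 178 through GENCODE M21, 293 unnamed). A gene was represented by its coding transcript with the longest span, or by its transcript with the longest span where none was coding. GENCODE M21 on GRCm38 gave spans, exons and coding sequences. Since the authors used another build, no genome coordinates are printed. Depth was estimated from the spacing of low RPKM values: 68.5% to 72.3% of values worth less than 5 reads were whole to within 0.1 read. Estimated reads cover counting error only.

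Values were tested on log2(RPKM + 0.5) with limma 3.58.1 in R 4.3.3, 1 model over 9 libraries with a mean-variance trend and Benjamini-Hochberg adjustment over 12129 genes whose mean reached 0.5 RPKM. Fold changes of this scale understate those of low genes, and folds between means are on RPKM itself. The procedure was tested on simulated data. Alternatives were another pseudocount, filter and scaling, pairwise fits, a replicate block, sex in the model and leaving out each library.

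The members and gene lists were chosen with earlier results of these data known. Genes are named if they are members, Sfpq, the closest relatives, called list genes (up to 6 a list), the 4 nearest profiles of each member, the long genes next to a member in log2 change, or adjacent protein-coding genes. A gene that this rule would name is not reported here.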

Additional observations from a re-analysis of the deposited data

How the results depend on the processing

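Plcl2, Rere and St18 stayed higher in homozygous than control libraries under all 17 alternatives, with log2 changes of 1.41 to 1.56, 1.22 to 1.45 and 1.01 to 1.13, and against heterozygous libraries of 1.30 to 1.45, 1.20 to 1.44 and 0.94 to 1.06. In heterozygous against control libraries none was called under any alternative, with 0.09 to 0.15 for Plcl2 (adjusted p 0.752 to 1), -0.01 to 0.08 for Rere (0.912 to 1) and 0.01 to 0.11 for St18 (0.792 to 1). Rere turned sign there at -0.0001 without control replicate 1, -0.0112 without control replicate 2 and -0.0095 without sfpq_hetero_KO replicate 3, over a range of -0.0112 to 0.0543 with 1 library left out. Genes called between heterozygous and control libraries were 0 except 1 higher with no filter and 1 lower with only the groups compared. Genes called higher in homozygous than control libraries numbered 1723, against 2845 under median centring and 2557 under quantile normalization, with 1986 and 2148 lower. They numbered 1148 without control replicate 2 and 1148 to 1800 with 1 library left out. Against heterozygous libraries they numbered 1739, or 2799 under median centring. The scalings moved the median log2 change of all genes by at most 0.0632. Same-numbered libraries deviated together with correlations of -0.045 to 0.404, over 0.1 in 2 of 9 pairs. These 2 pairs, at 0.4042 and 0.3218, are of homozygous with control libraries, where differently numbered pairs ran from -0.4425 to 0.1014. What the numbers stand for was not tested. The replicate block gave 1874 higher and 2522 lower. Tbc1d5 turned sign under quantile normalization (0.0331), median centring (0.0493), sex in the model (0.0013) and without sfpq_homo_KO replicate 3 (0.0351; -0.0564 to 0.0351 with 1 library left out). The causes were not tested. Sequencing depth does not limit the members, which had at least 5308 estimated reads; the 3 libraries per group and the shared control libraries do.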

Other observations

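The protein-coding genes that lie beside the members in GENCODE M21 did not share 1 direction. Upstream of Rere, 32.8 kb before its start and on the same strand, Eno1, the glycolytic enolase, was 184, 183 and 175 RPKM in homozygous libraries, 138, 139 and 136 RPKM in heterozygous libraries and 139, 153 and 161 RPKM in control libraries. It rose by log2 0.26 ± 0.06 (SE; limma adjusted p = 0.00358) against control, and its reads are uncertain because a near-identical copy, Eno1b, exists. Slc45a1, a sugar transporter gene 6.6 kb after the end of Rere on the other strand, stood at 0.580 ± 0.089 RPKM in homozygous, 0.662 ± 0.122 RPKM in heterozygous and 0.740 ± 0.008 RPKM in control libraries (SD, n = 3 each; limma adjusted p = 0.120 against control for homozygous libraries).

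Pcmtd1, the next gene after St18 on the same strand at a distance of 228 kb, went the other way. It was 4.98, 4.95 and 5.23 RPKM in homozygous libraries, 10.8, 10.2 and 10.2 RPKM in heterozygous libraries and 10.6, 10.2 and 10.7 RPKM in control libraries. The homozygous libraries lay clear below the other 6, with a log2 change of -0.98 ± 0.06 (SE; limma adjusted p = 3.39e-07). Against control alone, such a separation downward was found for 25.6% of all tested genes. Alkal1, 92.5 kb before St18, was listed at no more than 0.0179 RPKM in any library. Beside Plcl2, Tbc1d5, a gene of 446.2 kb on the other strand whose nearer end lies 44.6 kb after Plcl2, averaged 1.85 ± 0.149 RPKM in homozygous, 1.99 ± 0.051 RPKM in heterozygous and 1.87 ± 0.036 RPKM in control libraries (SD, n = 3 each). Dazl, 215.8 kb before Plcl2, stayed at or below 0.0689 RPKM in every library. The adjacent genes were listed because of their position, and no relation between them and the members was tested.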
